A study of Mus musculus with 2 samples.

Results

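The 9 genes described here encode the carriers that bring glucose into a muscle cell, the carriers that move lactate across its membrane, and the receptor and adaptor proteins that start the response to insulin. They are the glucose carriers Slc2a1, Slc2a3, Slc2a4 and Slc2a12, the lactate carriers Slc16a1 and Slc16a3, the insulin receptor Insr and its substrates Irs1 and Irs2. They were taken by symbol from a list of 9, and each matched 1 gene identifier among 55536 annotated genes. RNA came from the gastrocnemius of 2 male B6CASTF1/J mice aged 4 days, an F1 hybrid strain of C57BL/6J and CAST/EiJ. Whole muscle pieces gave 300 ng of total RNA per library, and spike-in transcripts took 0.650% and 0.635% of counts. The labels give the animals separate numbers but 1 shared donor identifier, and list them as 2 biological replicates of 1 untreated group. No animal was treated, and there was no second age, fibre type or genotype, so genes were compared within a library and the animals with each other. Values are mean ± SD over the libraries (n = 2) or are given for replicate 1 and then replicate 2. With 2 animals the smallest p of an exact two-sided sign-flip test is 0.5, so ratios are given with their spread and without a test.

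Annotated genes held 35281187 expected counts in replicate 1 and 32301531 in replicate 2. All 5 skeletal muscle markers were high, with a median of 4815 ± 398 TPM, a measure of abundance per transcript length with the same total in every library. Of 4 neuronal markers none reached 1 TPM in both libraries. Most genes of 4 marker lists were past 1.5-fold and higher in replicate 2. Of all 17998 genes averaging at least 10 counts, 12.9% were past 1.5-fold in either direction. Summed epidermal markers were 9.60 TPM in replicate 1 and 746 TPM in replicate 2, Schwann cell markers 319 and 724 TPM, nerve sheath markers 5.83 and 11.9 TPM, and adipocyte markers 223 and 363 TPM. Most of the adipocyte sum was Fabp4, at 192 and 281 TPM. The part of epidermis in the nerve sheath markers was not tested.

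Glucose enters cells by facilitated diffusion through GLUT carriers. GLUT1 (Slc2a1) gives basal uptake in most tissues and is a main carrier of fetal muscle, whereas GLUT4 (Slc2a4) waits in vesicles until insulin or contraction brings it to the surface and is the main carrier of adult muscle and fat. Lactate crosses the membrane together with a proton through monocarboxylate carriers. MCT1 (Slc16a1) is known from tissues that take up and oxidise lactate, and MCT4 (Slc16a3) from glycolytic fibres that release it. Insulin binds its receptor, a tyrosine kinase, which phosphorylates the adaptors IRS1 and IRS2, and these recruit phosphoinositide 3-kinase.

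A lactate carrier and a glucose carrier, Slc16a3 and Slc2a4, were the highest of the 9 genes at 4 days of age. The lactate carrier Slc16a3 (chr11:120948480-120960868, plus strand) stood at 61.6 and 56.2 TPM in replicates 1 and 2 and the insulin-regulated glucose carrier Slc2a4 (chr11:69942539-69948188, minus strand) at 58.1 and 40.8 TPM. Their ranges overlapped, so their order is not settled by these animals, although Slc16a3 was the higher in each by the gene table. Slc16a3 averaged 58.9 ± 3.80 TPM and Slc2a4 49.5 ± 12.2 TPM. Among 12159 protein-coding genes outside the mitochondrial genome at 1 TPM or more in both libraries, with a median of 10.8 TPM, Slc16a3 exceeded 91.0% and Slc2a4 89.2%. In whole muscle, fewer cells of a type and less RNA per cell cannot be told apart.

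The insulin receptor and its leading substrate came next. Coordinates are those of mm10 with the GENCODE M21 annotation throughout. Irs1 (chr1:82233101-82291416, minus strand) stood at 37.0 and 39.6 TPM, and Insr (chr8:3122061-3279617, minus strand) at 28.9 and 28.4 TPM. The Irs1 values lay below both Slc2a4 values, by a narrow margin in replicate 2, and above both Insr values. Slc16a1 (chr3:104638668-104658462, plus strand), the carrier known for lactate uptake, stood at 14.7 and 14.1 TPM, close to the middle of the expressed protein-coding genes (59.8% lay below it).

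The other 4 genes were below the median of expressed protein-coding genes. Irs2 (chr8:10984681-11008458, minus strand), an adaptor best known from liver, stood at 6.71 and 7.93 TPM. Slc2a12 (chr10:22645011-22704285, plus strand), which encodes the insulin-responsive carrier GLUT12, stood at 5.31 and 5.40 TPM. Neither range reached the other, and both genes lay above the broadly expressed carrier Slc2a1 (chr4:119108711-119137983, plus strand) at 2.86 and 3.02 TPM. Slc2a3 (chr6:122727809-122801640, minus strand), which encodes the high-affinity carrier GLUT3 of neurons, was the lowest at 1.09 and 1.52 TPM, and only 1.52% of expressed protein-coding genes lay below it. Of the 8 steps in the order of the 9 genes, the one between Slc16a3 and Slc2a4 was the only one with overlapping values, and in the gene table every step had the same direction in both animals. The quantification made directly from reads gave the same order of the means, at higher TPM throughout, with Slc16a3 at 82.4 ± 4.67, Slc2a4 at 74.2 ± 16.4 and Slc2a1 at 5.89 ± 0.0448 TPM. Single libraries departed from that order at 2 steps. In replicate 1 Slc16a3 was at 85.7 and Slc2a4 at 85.8 TPM, and in replicate 2 Slc2a12 was at 5.56 and Slc2a1 at 5.85 TPM, so the order within these pairs is not settled.

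**Figure D1:**
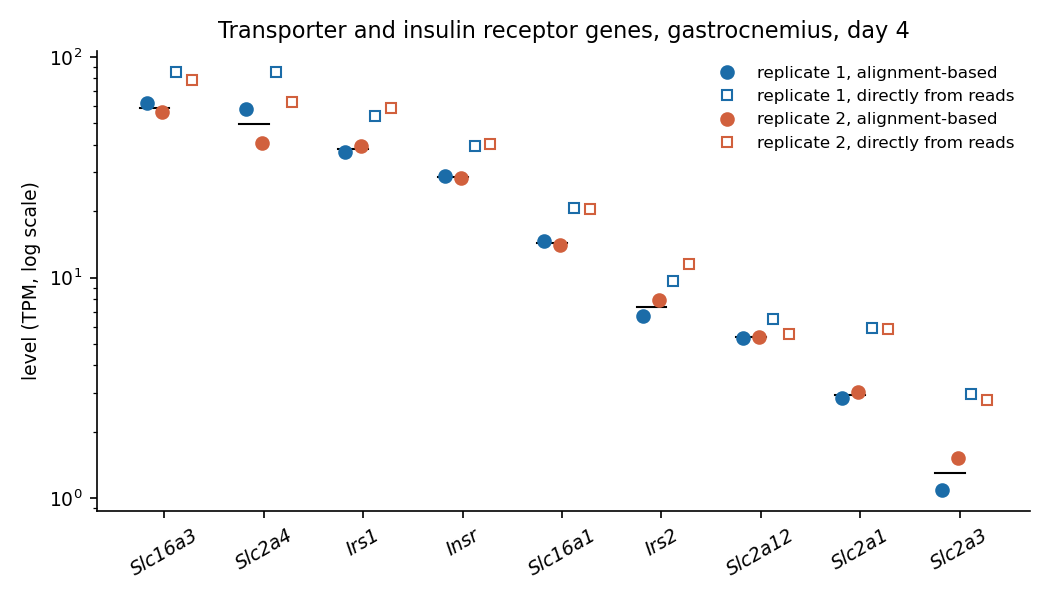
Level of each gene in TPM on a log axis, for replicate 1 (blue) and replicate 2 (orange). Filled circles are the alignment-based gene table, with a black line at their mean, and open squares the quantification made directly from reads. Slc16a3 and Slc2a4 lead at 58.9 and 49.5 TPM and Slc2a3 is lowest at 1.31 TPM.

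Slc2a1, the perinatal carrier, was far below Slc2a4, the adult one, in both animals. In replicate 1 Slc2a1 was 2.86 TPM beside 58.1 TPM of Slc2a4, and in replicate 2 it was 3.02 beside 40.8 TPM. With 0.1 TPM added to each value, the log2 ratio of Slc2a1 over Slc2a4 was -4.30 in replicate 1 and -3.71 in replicate 2. The mean of -4.01 ± 0.41 corresponds to a 16.1-fold lower level of Slc2a1. The reads-based quantification gave 12.3-fold (-3.62 ± 0.31). The animals differed in Slc2a4 and little in Slc2a1. Slc2a12 was 8.95-fold below Slc2a4 (log2 ratio -3.16 ± 0.38), and Slc2a3 2.19-fold below Slc2a1 (-1.13 ± 0.26).

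Slc2a4 alone held most of the transcript abundance of its family. The 12 Slc2a genes summed to 78.2 TPM in replicate 1 and 61.7 TPM in replicate 2, and Slc2a4 made up 74.3% and 66.1% of that. Slc2a12 held 7.77% ± 1.38, Slc2a1 4.28% ± 0.871 and Slc2a3 1.93% ± 0.755. Slc2a8, the intracellular carrier GLUT8, exceeded Slc2a1 at 3.94 and 3.41 TPM, but by the reads-based quantification it averaged 5.56 TPM and Slc2a1 5.89 TPM, so their order is not settled. At 1 TPM or more in both libraries were 4 of the 8 Slc2a genes outside the list. Besides Slc2a8 these were the myo-inositol carrier Slc2a13 (2.34 ± 0.0707 TPM), Slc2a10 (2.33 ± 0.233 TPM) and the fructose carrier Slc2a5 (1.44 ± 0.339 TPM). The liver and beta-cell carrier Slc2a2 stood at 0.0600 ± 0.0141 TPM, from 2 and 6 counts, and Slc2a7 had 0 counts in both.

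Slc16a1 was below Slc16a3 by nearly the same factor in both animals. The log2 ratio of Slc16a1 over Slc16a3 was -2.06 in replicate 1 and -1.99 in replicate 2, a mean of -2.02 ± 0.05 or 4.07-fold, and 3.98-fold by the reads-based quantification. In the gene table this ratio differed least between the animals of the 6 computed between related genes, whereas directly from reads Slc2a3 over Slc2a1 and Insr over Irs1 differed less. Because the Slc16a1 transcript is about 4426 nt long and the main Slc16a3 transcript 2272 nt, counts not divided by length gave a smaller gap, at -0.88. The 14 Slc16a genes summed to 110.2 and 109.8 TPM. Slc16a3 made up 55.9% and 51.2% of that and Slc16a1 13.4% and 12.8%. The lowest was Slc16a5 at 0.0650 ± 0.0354 TPM. Basigin (Bsg), the chaperone that brings both MCT1 and MCT4 to the membrane, stood at 157 ± 2.45 TPM, above its relatives Nptn (55.0 ± 3.67 TPM) and Emb (8.51 ± 0.771 TPM).

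**Figure D2:**
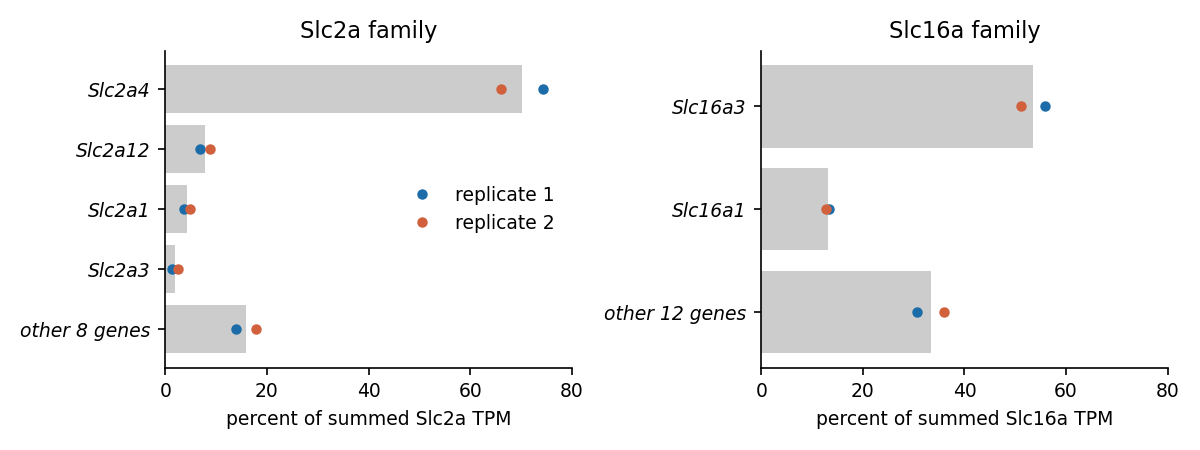
Percent of the summed TPM of the 12 Slc2a genes (left) and the 14 Slc16a genes (right) held by each of the genes described here and by all other members of the family together. Grey bars are the mean of both libraries, and blue and orange points replicates 1 and 2. Slc2a4 holds 74.3% and 66.1% of its family and Slc16a3 55.9% and 51.2%.

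Among the receptor genes, Irs1 exceeded Irs2 and stood slightly above the receptor itself. The log2 ratio of Irs2 over Irs1 was -2.44 in replicate 1 and -2.31 in replicate 2, a mean of -2.37 ± 0.10 or 5.19-fold. Irs1 held 83.4% ± 1.11 of the TPM of the 4 Irs genes and Irs2 15.9% ± 0.896. Irs3 stood at 0.335 ± 0.134 TPM, and Irs4 had 3 counts in replicate 1 and 0 in replicate 2. The log2 ratio of Insr over Irs1 was -0.35 and -0.48 in the 2 animals (mean -0.42 ± 0.09, 1.33-fold). Insr in turn exceeded the related receptor Igf1r, at 16.6 and 17.4 TPM, in both animals, whereas Igf2r, which clears IGF2 and does not signal as a kinase, was higher at 74.3 ± 2.19 TPM. The insulin gene Ins1 had 0 counts and Ins2 had 2 counts in each library. The orphan receptor Insrr stood at 0.0650 ± 0.00707 TPM.

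**Figure D3:**
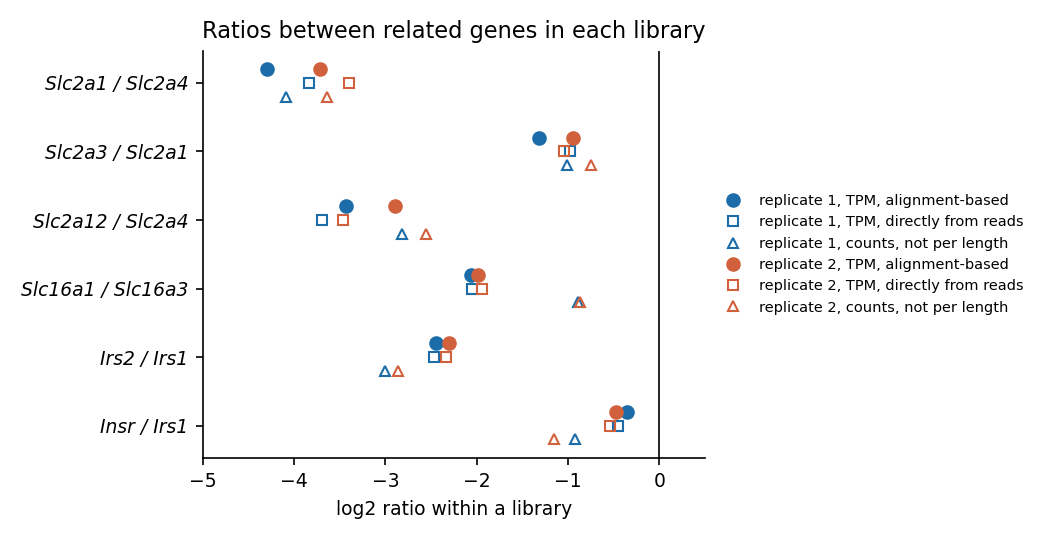
Log2 ratio of the gene named first over the gene named second, within each library. Filled circles are TPM of the gene table, open squares TPM made directly from reads and triangles counts not divided by length, in blue for replicate 1 and orange for replicate 2. Every point lies left of 0. In TPM of the gene table, Slc2a1 over Slc2a4 is farthest left at a mean of -4.01 and Insr over Irs1 nearest to 0 at -0.42.

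Transcripts differed between the genes in how far a single form accounted for the level. Slc16a1, Irs1 and Irs2 have 1 annotated transcript each. The leading transcript of Slc2a4, a coding form, held 88.7% and 86.3% of Slc2a4, and a form annotated as a retained intron held 4.87% and 5.44%. The coding transcript held 89.0% and 71.3% of Slc2a12. The rest of Slc2a12 was a short noncoding transcript of 398 nt with 5.11 and 12.6 expected counts, to which the reads-based quantification gave 0. The gene-level TPM of Slc2a12 was nearly equal in the animals, although its expected counts were 568 and 440.

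For Insr, 2 forms differ by an alternative exon of 36 bases, an exon known to separate receptor isoform B, which contains it, from isoform A. In the annotation Insr-201, the full-length coding transcript of 21 exons, lacks it, and the partial coding transcript Insr-203 contains it, on the minus strand of chr8:3181702-3181737 (mm10). Both sequences are shown over the exon boundary, 5′ to 3′, with the exon in capitals.
Insr-203: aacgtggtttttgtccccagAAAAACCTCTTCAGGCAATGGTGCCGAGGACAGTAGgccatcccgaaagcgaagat
Insr-201: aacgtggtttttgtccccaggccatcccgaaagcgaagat
Insr-201 held 58.3% and 53.8% of Insr TPM and Insr-203 held 11.7% and 15.2%. Of the TPM of both forms together, Insr-203 made up 16.7% in replicate 1 and 22.1% in replicate 2 (19.4% ± 3.80), and 22.3% ± 4.00 by the reads-based quantification. Insr-203 was thus the lower of these annotated forms in both animals. This share rests on 56.6 and 67.5 expected counts of Insr-203. That transcript is 672 nt long with both ends incomplete, and its remaining exons lie within those of Insr-201. No full-length coding transcript with the exon is annotated. Reads of such an RNA from outside this fragment would be assigned to Insr-201, so the share cannot say which receptor isoform was the greater. Retained-intron transcripts took most of the rest, Insr-202 with 23.5% and 25.5% and Insr-204, which covers the alternative exon, with 6.48% and 5.48%.

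A sizeable part of Slc2a1 was assigned to a transcript annotated for nonsense-mediated decay. This decay form, which lacks an internal exon of the main coding form, held 33.7% and 36.1% of Slc2a1 TPM, from 60.5 and 63.8 expected counts. The coding form held 66.3% and 53.8%, from 175 and 140 counts. The reads-based quantification placed the decay form at 38.6% and 40.7%, above the coding form at 33.4% and 31.4%, so which of them led depended on the quantification. The annotation tags the decay form as not supported by mouse evidence. Slc2a3 was too shallow, with 117 and 124 counts in all, for its transcript shares to be stable. Its leading coding transcript held 71.6% and 67.2% by alignment and 26.3% and 49.1% directly from reads.

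Slc16a3 has 2 main sites of annotated starts on the plus strand of chromosome 11, both upstream of the annotated start codon. The leading coding transcript starts at 120948480, and 4 transcripts start between 120949053 and 120949081. The RefSeq start lies 587 bases downstream of 120948480. The upstream start held 47.4% and 59.2% of Slc16a3 TPM and the downstream group 44.6% and 34.8% by alignment. Directly from reads these shares were 81.2% and 87.5% for the upstream start and 6.99% and 4.40% for the downstream group. The upstream form led in all 4 comparisons, by margins that ranged from narrow to very wide. The window at the downstream start is shown because the RefSeq promoter table (GRCm38.p6) places Slc16a3 there, at chr11:120948817-120949116, plus strand, 250 bases before the start and 50 after it. Capitals mark ACGTG, a form of the core of the hypoxia response element, searched on both strands.
Slc16a3: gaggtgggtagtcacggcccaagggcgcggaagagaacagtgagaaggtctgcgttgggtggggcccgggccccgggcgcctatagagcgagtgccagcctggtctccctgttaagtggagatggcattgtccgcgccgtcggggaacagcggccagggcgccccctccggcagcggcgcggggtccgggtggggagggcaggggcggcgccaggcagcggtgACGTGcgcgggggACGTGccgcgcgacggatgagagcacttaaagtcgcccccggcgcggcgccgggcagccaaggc
The letters occur at 2 places, 27 and 14 bases before the start. ACGTG or its reverse complement CACGT occurred in 19.6% of all 32851 promoter windows of the same length. Of the 6 members with a window in that table, 5 had a match, and Slc2a12 had none. The windows with a match held 65.3% to 73.7% G and C and that of Slc2a12 47.0%. The searched letters contain CG, and the difference from all windows was not tested. The letters CACGTG match on both strands and count there as 2 overlapping matches, which was so in Slc16a1, Irs1 and Irs2. A match describes the letters and does not show binding.

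**Figure D4:**
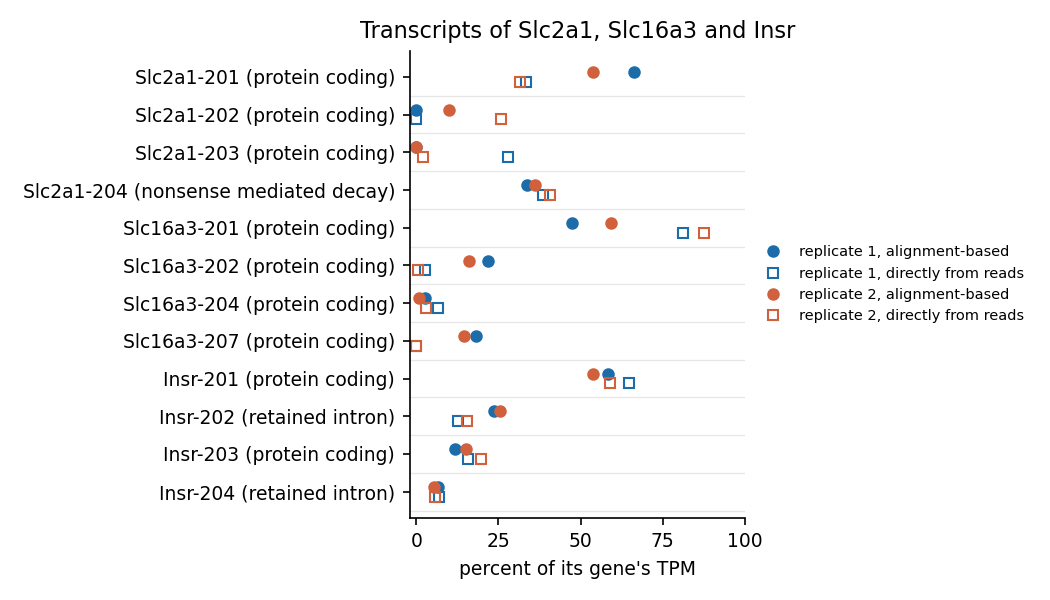
Percent of its gene's TPM held by each transcript of Slc2a1, Slc16a3 and Insr at 5% or more in either quantification. Filled circles are alignment-based and open squares made directly from reads, in blue for replicate 1 and orange for replicate 2. The upstream-start transcript of Slc16a3 holds 47.4% and 59.2% by alignment and 81.2% and 87.5% directly from reads, whereas Insr-201 holds 58.3% and 53.8% by alignment and 64.8% and 59.0% directly from reads.

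The genes listed for the response downstream of the insulin receptor were all expressed. All 18 genes of the insulin signal cascade were at 1 TPM or more in both libraries, with a median of 24.8 ± 0.470 TPM, beside 12159 of 22015 protein-coding genes outside the mitochondrial genome that reached this level. The highest were the GTPase Rac1 (123 ± 9.43 TPM) and the kinases Akt1 (106 ± 0.226 TPM) and Akt2 (75.2 ± 1.03 TPM). Akt2 is the Akt kinase known for insulin-stimulated glucose uptake, and it stood below Akt1 in both animals. The adaptors Grb2 and Shc1 stood at 42.4 ± 1.33 and 32.3 ± 0.735 TPM and the kinase Gsk3b at 30.4 ± 0.962 TPM.

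All 13 genes of Slc2a4 vesicle traffic were also at 1 TPM or more, with a median of 25.4 ± 1.24 TPM. Rab10, a GTPase of vesicle exocytosis, led at 86.2 ± 0.615 TPM, followed by the insulin-regulated aminopeptidase Lnpep, a resident of the same vesicles, at 46.2 ± 0.707 TPM. The motor Myo1c stood at 37.0 ± 1.63 TPM, and the membrane fusion proteins Stx4a, Vamp3 and Vamp2 at 34.7 ± 0.170, 32.2 ± 0.156 and 29.0 ± 0.375 TPM. Lnpep and Slc2a4 were close in level, with both Lnpep values (46.7 and 45.7 TPM) between the Slc2a4 values.

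Among restraints of insulin signalling, Grb10 stood far above the others. Grb10, an imprinted adaptor that binds the receptor and dampens its signal, was at 317 and 304 TPM, so that its level per length exceeded that of Insr itself in both animals. The lipid phosphatase Inppl1 stood at 37.3 ± 2.12 TPM and the tyrosine phosphatase Ptpn1 at 13.3 ± 0.714 TPM. Grb14, a relative of Grb10, stood at 5.98 ± 0.651 TPM and the inhibitor Socs3 at 5.84 ± 0.262 TPM. At 1 TPM or more were 8 of the 9 restraint genes, and their median was 6.05 ± 0.559 TPM.

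The muscle-type enzymes on either side of the carriers were higher than their relatives. Hk2, the hexokinase of insulin-sensitive tissue that traps glucose after entry, stood at 30.6 and 23.0 TPM, above the broadly expressed Hk1 at 11.1 and 12.4 TPM in both animals. Ldha, the muscle-type lactate dehydrogenase, stood at 602 ± 49.6 TPM and Ldhb, the heart type, at 64.1 ± 2.87 TPM. The arrestin-like proteins that remove glucose carriers from the membrane stood at 117 ± 17.7 TPM for Txnip and 7.42 ± 1.49 TPM for Arrdc4. The testis form of lactate dehydrogenase, Ldhc, had 0 counts in both libraries.

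None of the 9 genes differed by more than 1.5-fold between the animals in counts scaled for depth. Of 17998 genes averaging at least 10 counts, 12.9% passed 1.5-fold. Of 12421 averaging at least 100 counts, as all 9 genes did, 4.00% passed. A count of 0 of 9 is near that background and is no result about these genes. Slc2a4 came nearest, with 4011 counts in replicate 1 and 2596 in replicate 2. It was 1.46-fold higher in replicate 1 (log2 ratio 0.54, 95% counting interval 0.47 to 0.62), above the 95th percentile of 0.34 for genes averaging at least 100 counts.

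The other 8 genes lay between the 5th and 95th percentiles of those genes, at log2 -0.42 and 0.34. Slc2a12 was at 0.29 (0.10 to 0.47), Insr at 0.15 (0.09 to 0.21) and Slc16a3 at 0.10 (0.03 to 0.18). Irs2 was lower in replicate 1, at -0.22 (-0.34 to -0.11), and so was Irs1, at -0.08 (-0.12 to -0.04). The intervals of Slc16a1, Slc2a1 and Slc2a3 included 0. Counting intervals cover counting error only, and with 1 library per animal, animal, dissection and library preparation cannot be told apart.

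Other measurements also differed between the animals, in both directions. The 5 skeletal muscle markers were all higher in replicate 1 by less than Slc2a4, with a median log2 ratio of 0.14 and the largest, 0.26, in the fast troponin Tnnt3. Myh4, the myosin of the fastest fibres, named here with its values known, stood at 823 and 503 TPM with a log2 ratio of 0.73. Of the other myosins looked up, Myh8, one of the muscle markers, was at 0.14, and Myh3 and Myh7 were higher in replicate 2, at -0.29 and -0.28. Among 7 counted genes of glucose phosphorylation, lactate dehydrogenase and the arrestin-like proteins, 5 were higher in replicate 1, with a median of 0.19. Txnip and Hk2 were the highest at 0.44 and 0.38, while Arrdc4 was at -0.33 and Hk1 at -0.04. Adipocytes also use Slc2a4, and all 5 adipocyte markers were higher in replicate 2, at a median log2 ratio of -1.33. All 4 Schwann cell markers and all 6 epidermal markers were likewise higher in replicate 2, at medians of -1.06 and -8.90. The part of these in the values of the 9 genes was not tested.

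Markers of cells known to carry Slc2a1 and Slc2a3 differed to unequal degrees. Endothelial markers summed to 243 and 252 TPM with all 7 at 1 TPM or more, red cell markers to 472 and 545 TPM with 4 of 6, macrophage markers to 74.1 and 84.1 TPM with all 6, and platelet markers to 37.0 and 39.4 TPM with 2 of 4. Most of the platelet sum was Pf4, at 34.3 and 37.3 TPM. No gene of these 4 lists averaging at least 10 counts passed 1.5-fold, beside 12.9% of all genes at that minimum. All 3 nerve sheath markers did, at a median log2 ratio of -1.05, with 2 of 3 at 1 TPM or more. All 6 epidermal markers were also higher in replicate 2, and the part of epidermis in the nerve sheath markers was not tested. Slc2a1 stood at 2.86 and 3.02 TPM, beside epidermal markers at a sum of 9.60 and 746 TPM. Fibroblast markers summed to 3105 and 3034 TPM, smooth muscle markers to 263 and 266 TPM, and the 3 markers of brain-type barrier endothelium to 20.1 and 24.8 TPM. Most of the barrier sum was Cldn5 at 19.5 and 22.5 TPM, while Mfsd2a was at 0.46 and 2.14 TPM (log2 ratio -2.44). Slco1c1, the third of these markers, was at 0.11 and 0.13 TPM, from 7 and 9 counts. Neuronal markers summed to 0.440 and 0.760 TPM, with none of 4 at 0 counts. The part of each cell type in the level of Slc2a1 or Slc2a3 was not tested.

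**Figure D5:**
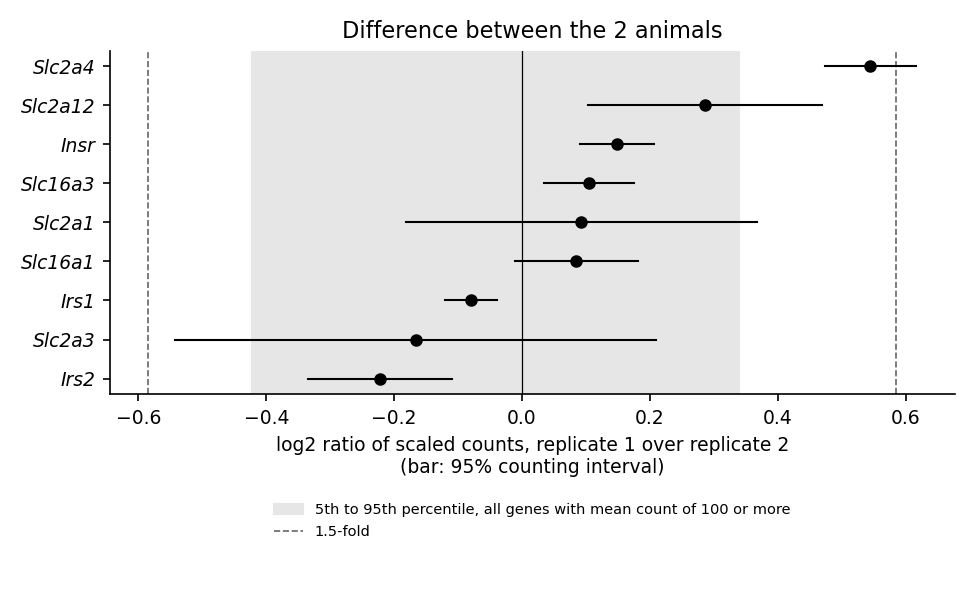
Log2 ratio of scaled counts, replicate 1 over replicate 2, for each gene, with its 95% counting interval. The grey band spans the 5th to 95th percentile of genes averaging at least 100 counts (-0.42 to 0.34) and dashed lines mark 1.5-fold. Slc2a4 at 0.54 is the only gene whose point lies outside the band, and no point passes 1.5-fold.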

How the data were processed

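Total RNA-seq libraries of 2 animals were analysed from the deposited tables. Per the file headers, the authors' gene and transcript tables give expected counts and TPM in RSEM's column layout, from alignments to the transcriptome. The deposited transcript tables add each transcript's percent of its gene. A second deposited transcript table, in kallisto's column layout, gives estimated counts and TPM quantified without alignment and was summed per gene. The build is mm10 with annotation M21. Aligner, versions and strand setting: not given in the sources used here. CAST alleles were read against a C57BL/6J build, which could lower their counts.

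Entries outside the annotated genes other than spike-ins held 54 and 56 counts and were left out. Library ratios used expected counts, rounded for scaling by edgeR 4.0.16 (TMM; R 4.3.3) and for exact (Clopper-Pearson) 95% intervals of the split. Pair ratios used TPM plus 0.1. Alternatives were DESeq2 1.42.0 size factors, total counts, spike-ins, other count minimums, pseudocounts and the second quantification. Scripts were tested on simulated counts. The members, pairs, 8 lists and 13 marker lists were chosen with earlier results of these data known. All members were named, with up to 6 genes of highest mean TPM per list, list genes under 0.1 TPM, and transcripts at 5% or more of a gene, apart from some items that are not reported here. No gene was named for a like pattern, since 1 group of 2 libraries has none across conditions. Slc2a12 overlaps Tbpl1 (826 and 719 counts) on the other strand, so its count is uncertain. Genes overlapping the other members held at most 47 counts.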

Additional observations from a re-analysis of the deposited data

How the results depend on the processing

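No alternative turned the direction of the 6 ratios between related genes. The share of Slc2a4, Slc16a3 and Irs1 in their families and the Insr-203 share moved by less than the spread between the animals under the second quantification. Under that quantification Slc2a12 over Slc2a4 moved to -3.58. In counts not divided by length it was -2.69, Slc16a1 over Slc16a3 -0.88, Irs2 over Irs1 -2.93 and Insr over Irs1 -1.04, since these counts leave out transcript length by construction. With a pseudocount of 1 TPM, Slc2a3 over Slc2a1 was -0.78, Slc16a1 over Slc16a3 -1.96 and Irs2 over Irs1 -2.24. With 2 libraries, leaving out either gives only the value of the other, which says nothing about stability. Genes past 1.5-fold between the libraries numbered 2322 at a mean count of 10 or more, 497 at 100 or more and 5283 among all genes with a count in both, and none of the 9 genes passed in any of these or under DESeq2 or spike-in scaling. Slc2a4 stayed at 0.47 to 0.57 on the log2 scale under 4 other scalings or counts. Spike-in scaling moved 4 library ratios outside their counting intervals, Slc2a4 to 0.465, Slc16a3 to 0.025, Insr to 0.068 and Irs1 to -0.159. Scaling by total counts also moved Irs1 outside its interval, to -0.124. The small library ratios therefore depend on the choice of scaling. All 9 levels in TPM were higher under the second quantification. Protein-coding genes outside the mitochondrial genome summed to 418908 and 416338 TPM in replicates 1 and 2 of the gene table. In TPM taken over those genes alone, all 9 levels were higher too, with Slc16a3 at 141 and Slc2a4 at 118. Depth limits Slc2a3 and the transcript shares of Slc2a1 and Slc2a3 most.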

Other observations

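Most Slc16a genes outside the list were higher in replicate 2. Among 8 such genes averaging at least 10 counts, 7 were higher in replicate 2 and 3 passed 1.5-fold, beside 12.9% of all genes at that minimum. Their depth was lower than that of the 9 genes in several cases, and the difference from those genes was not tested. Slc16a6, a ketone body and taurine carrier, stood at 6.83 and 9.79 TPM in replicates 1 and 2 (log2 ratio -0.64), and Slc16a7, the high-affinity pyruvate and lactate carrier MCT2, at 1.28 and 1.85 TPM (-0.69). Slc16a14, named after its values were seen, had 2 and 21 counts. Slc16a10, an aromatic amino acid carrier, was the exception at 7.90 and 6.83 TPM (0.27).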
